A study of Mus musculus with 24 samples.

Results

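The genes described here are the nuclear genes of the last 2 enzymes of oxidative phosphorylation, cytochrome c oxidase (complex IV) and ATP synthase. They were chosen by symbol, as every row of the deposited expression table whose name starts with Cox and a digit or with Atp5, a rule that uses no measured value. The rule gave 44 of the 15582 genes in the table as used here, 27 with Cox symbols and 17 with Atp5 symbols.

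The study measured gene expression by RNA sequencing in liver of male B6C3F1 mice, a hybrid mouse strain. The mice were 4 weeks old and drank water with dichloroacetic acid (DCA) at 0, 1, 2 or 3.5 g/L for 6 days, with 6 libraries per dose, so that the controls were untreated and all 24 libraries shared strain, sex and age. DCA is a by-product of water chlorination and an inhibitor of pyruvate dehydrogenase kinase. RNA came from frozen liver pieces of mixed lobes, and the libraries were made from total RNA with strand information after removal of ribosomal RNA. Separate mice per library are not spelled out in the labels, and a p-value here then reflects library spread only, which may be technical. Each title also has an unexplained tag: L1 in all controls, L1 in 3 and L2 in 3 of the 1 g/L libraries, L2 in all 2 g/L and L3 in all 3.5 g/L libraries. At 3.5 g/L the tag and the dose cannot be told apart.

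Complex IV passes electrons from cytochrome c to oxygen and pumps protons across the inner mitochondrial membrane. Its catalytic core is encoded in mitochondrial DNA and is surrounded by small nuclear-encoded subunits, several of which exist as a general isoform, used in liver, and another restricted to muscle, heart, lung or testis. ATP synthase lets the protons flow back through a ring of c subunits in the membrane, which turns the central stalk inside the catalytic F1 head, while a peripheral stalk holds the head still.

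Values were RPKM, reads scaled by gene length and by the reads of the library. In the controls the liver form of these enzymes was among the abundant transcripts. The 25 subunit genes used in liver (10 of complex IV and 15 of ATP synthase) had control medians from 38.5 RPKM for Atp5g2 to 280.1 RPKM for Atp5b, the catalytic beta subunit. Atp5b ranked 71 of the 6540 genes tested. The 9 complex IV assembly factors had control medians from 2.22 RPKM for Cox11 to 10.3 RPKM for Cox17. The steps between low RPKM values put the depth of a library at about 26600000 to 31700000 reads, with relative depths of 0.951 to 1.13.

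Defining hepatocyte markers were present at high level in every library, and the labelled tissue was checked against them. The summed RPKM of 5 hepatocyte markers (Alb, Apoa1, Cps1, Cyp2e1, Hnf4a) ranged from 23075 to 29406 in control, from 20628 to 25741 at 1 g/L, from 16160 to 25342 at 2 g/L and from 17525 to 22824 at 3.5 g/L. At each of the 2 higher doses 4 of the 5 passed the test as lower, while Hnf4a was called higher at 3.5 g/L, and none of the 5 was at 0 in any group. The 5 red cell markers summed to 246 to 820 RPKM in control, 191 to 422 RPKM at 2 g/L (5 lower) and 238 to 498 RPKM at 3.5 g/L (4 lower). Of the 4 Kupffer cell markers 3 were lower at 3.5 g/L, with sums of 40.1 to 55.9 RPKM in control and 24.8 to 35.8 RPKM there. Of the 5 smooth muscle and pericyte markers tested 2 were lower at each of the 2 higher doses and 1 higher at 2 g/L. All 7 summed to 13.5 to 29.0 RPKM in control, 10.0 to 12.0 RPKM at 2 g/L and 9.82 to 11.9 RPKM at 3.5 g/L. The top of that control range was control 5, with 14.3 RPKM of Des against a control median of 0.724 RPKM. The markers did not move together: from control to 2 g/L the median of Mylk went from 8.60 to 5.05 RPKM and that of Acta2 from 0.526 to 1.35 RPKM. In bulk liver, fewer cells of a type and less RNA per cell cannot be told apart, and the part of these shifts in the results below was not tested. The libraries that stood apart were control 5, control 6 and 1 g/L library 52, which held transcripts known from other tissues: the 10 skeletal muscle markers summed to 635 RPKM in control 5 and 32.0 RPKM in control 6 against 0.621 to 1.46 RPKM in the other 22 libraries, and 4 fat markers summed to 40.8 RPKM in library 52 against 2.59 to 8.64 RPKM in the other 23.

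Transcripts of both enzymes were higher in the DCA groups, and the members' median fold was larger at 2 than at 1 g/L. Of the 38 members that passed the low-value filter, 13, 35 and 36 were called higher at 1, 2 and 3.5 g/L, and 0 were called lower at any dose (limma, Benjamini-Hochberg adjusted p under 0.05 over 6540 genes). Among all tested genes 8.35% were called higher and 3.03% lower at 1 g/L, 41.9% higher and 10.0% lower at 2 g/L, and 38.6% higher and 12.9% lower at 3.5 g/L. The median log2 fold of the members was 0.17, 0.40 and 0.46 at the 3 doses, beside 0.05, 0.12 and 0.10 over all genes tested. Folds throughout are differences of log2(RPKM + 1), which understate changes of low genes. No member passed an unadjusted p of 0.05 as lower against control at any dose, and limma was the one tool run. The 6 members that did not pass the filter, all tissue-restricted isoforms, are described last.

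The median of all genes was above 0 on the deposited scale, so the counts were also taken after rescaling each library to a common median ratio, which moved the median of all genes at 2 g/L from 0.12 to -0.0014. On that scale 6, 29 and 31 members were higher at 1, 2 and 3.5 g/L and 0 were lower, beside 3.56%, 21.3% and 23.5% higher and 5.20%, 21.0% and 23.3% lower of all genes. The median fold of the members was then 0.10, 0.24 and 0.31. Quantile normalization gave 16, 29 and 28 members higher and 0 lower, beside 5.26%, 20.8% and 21.9% higher and 4.77%, 20.0% and 22.1% lower of all genes. Short genes had larger folds in these libraries: at 2 g/L the median was 0.28 over 214 tested genes under 800 bases and 0.10 over 3379 genes of 3000 bases or more, and the members' medians in the same length classes were 0.46 (15 members) and 0.42 (3 members). Between 800 and 1500 bases the median was 0.17 over all genes and 0.36 over 11 members, and between 1500 and 3000 bases 0.12 and 0.34 over 9 members. With this length trend removed in each library, 7, 27 and 31 members were higher at 1, 2 and 3.5 g/L (4.06%, 22.5% and 24.9% of all genes), and 0, 1 and 0 were lower (4.88%, 21.8% and 24.7% of all genes). The 1 lower member was Cox20.

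The 1 g/L response stood between control and 2 g/L. The median member's fold at 1 g/L was 43.2% of its fold at 2 g/L, and at 3.5 g/L it was 109% of it. Directly compared, 26 members were higher and 0 lower at 2 than at 1 g/L (22.7% and 5.63% of all genes, limma, same threshold). From 2 to 3.5 g/L 0 members were called higher and 1 lower (4.79% and 5.54% of all genes, limma), with 5 members past an unadjusted p of 0.05 as higher and 1 as lower. Under quantile normalization 1 was higher and 0 lower (5.63% and 5.35% of all genes), and with the length trend removed 2 were higher, Cox7b and Cox7c, and 1 lower (6.51% and 5.52%). From 1 to 2 g/L the length correction left 17 members higher (12.9% of all genes).

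In ranges of the single libraries, 28 members were higher in every 2 g/L library than in any control, and 28 in every 3.5 g/L library than in any control (20.2% and 22.0% of all genes). At 1 g/L these were 3 members, Atp5l, Cox11 and Cox19 (3.01% of all genes). In the other direction, with every library of a dose below every control, there were 0 members at each dose, beside 1.61%, 3.10% and 5.86% of all genes. From 1 to 2 g/L 17 members separated upward and 0 downward (9.11% and 2.11% of all genes), and from 2 to 3.5 g/L 0 and 0 (2.11% and 2.02%). The median over the 10 complex IV subunits, taken within each library relative to the control mean, ran from -0.20 to 0.16 in controls, from 0.09 to 0.42 at 1 g/L, from 0.41 to 0.59 at 2 g/L and from 0.48 to 0.76 at 3.5 g/L. For the 15 ATP synthase subunits it ran from -0.20 to 0.07, from 0.01 to 0.32, from 0.38 to 0.54 and from 0.40 to 0.64. The lowest control in both was control 3, and the highest library in both was 3.5 g/L library 99.

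The 1 g/L count was the least steady. It was 8 without control 3 and also 8 without 1 g/L library 50, 51 or 52 in turn. It was 3 with control 5, control 6 and 1 g/L library 52 left out together, an omission chosen after the data were seen. The share of all genes called higher was 8.35% with all libraries and is not given for these omissions. These counts therefore cannot show whether the members still differed from all genes at 1 g/L. Within the L1 libraries alone (6 controls and 3 libraries of 1 g/L) 0 members passed limma's adjusted threshold and 13 passed an unadjusted p of 0.05 as higher (0.183% of all genes were called higher). With the tag as a term, 5 members were called higher at 1 g/L (1.22% of all genes) and 25 at 2 g/L (10.6% of all genes). Within 1 g/L the median fold against control over all members was 0.17 in the L1 libraries and 0.17 in the L2 libraries. Of the 38 members 15 were higher in L2 than in L1. By class the tags differed: the middle of the 3 library medians was 0.37 in L1 and 0.18 in L2 for complex IV subunits. It was 0.28 and 0.17 for ATP synthase subunits, 0.12 and 0.19 for assembly factors, and 0.04 and 0.09 for all tested genes. The ranges of L1 and L2 overlapped for each class but not for all tested genes. Within the L2 libraries, 15 members were higher at 2 than at 1 g/L (6.62% of all genes).

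**Figure D1:**
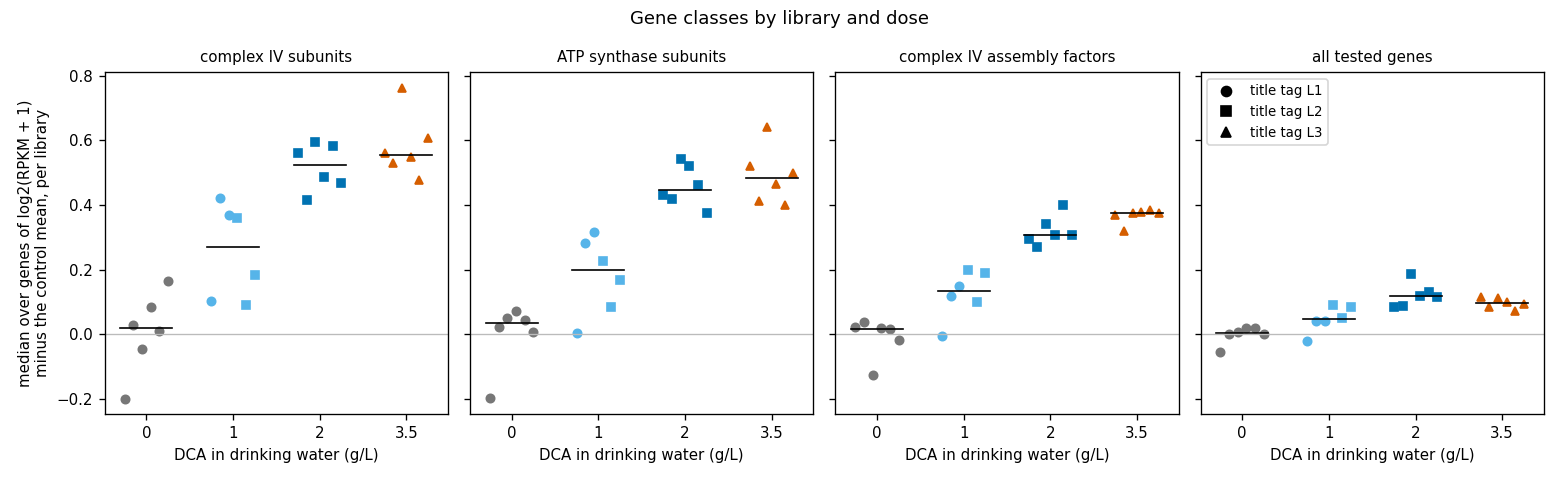
Median over the genes of a class of log2(RPKM + 1) minus the control mean (vertical axis), 1 point per library, by dose (horizontal axis, g/L), with the title tag as the symbol and the median of 6 libraries as a line. For complex IV and ATP synthase subunits all 2 and 3.5 g/L libraries lie above all controls, while the 1 g/L libraries spread between them, and all tested genes together move less.

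Of the 10 liver subunits of complex IV, 6 were higher at 1 g/L and all 10 at both higher doses. Over all tested genes 8.35%, 41.9% and 38.6% were called higher at 1, 2 and 3.5 g/L. The median log2 folds of the 10 were 0.25, 0.53 and 0.56 in order of dose. Their summed RPKM was 931 ± 78.3 in control and 1103 ± 102, 1334 ± 51.3 and 1423 ± 90.7 at 1, 2 and 3.5 g/L (mean ± SD, n = 6). On the median-ratio scale and after removal of the length trend 8 of 10 were called higher at 2 g/L and all 10 at 3.5 g/L. The shares of all genes called higher at these doses were 21.3% and 23.5% on the former and 22.5% and 24.9% on the latter.

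Cox5b, a nuclear subunit on the matrix side of the enzyme that binds zinc, changed most in its class. Its RPKM was 56.4 to 78.2 (median 71.0) in control, 76.6 to 103.7 (median 89.7) at 1 g/L, 109.4 to 126.9 (median 119.8) at 2 g/L and 116.8 to 140.2 (median 128.5) at 3.5 g/L. All libraries at 2 and 3.5 g/L lay above all control and 1 g/L libraries. The log2 fold was 0.35 (SE 0.08, adjusted p = 0.00787) at 1 g/L, 0.77 (SE 0.08, adjusted p = 1.03e-07) at 2 g/L and 0.88 (SE 0.08, adjusted p = 6.54e-09) at 3.5 g/L by limma. Cox5b lies at chr1:36691449-36693681 on the plus strand (GRCm38, GENCODE M21).

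Cox6b1, which faces the intermembrane space and helps join the 2 monomers of the enzyme, had 98.8 to 143.9 RPKM (median 133.6) in control and 140.9 to 179.2 RPKM (median 164.3) at 1 g/L. It reached 183.9 to 228.7 RPKM (median 216.2) at 2 g/L and 201.7 to 240.9 RPKM (median 216.1) at 3.5 g/L, without overlap with control. Its log2 folds were 0.33, 0.71 and 0.77 (SE 0.08 each), with limma adjusted p of 0.0129, 3.76e-07 and 5.98e-08. Cox7c followed with 0.59 at 2 g/L and 0.76 at 3.5 g/L, and Cox8a, Cox6a1, Cox5a, Cox7a2 and Cox4i1 ranged from 0.37 to 0.56 at 2 g/L.

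Cox6c, a small membrane-spanning subunit, changed least in its class at 2 g/L. It had 88.2 to 110.2 RPKM (median 91.6) in control, 89.6 to 127.7 RPKM (median 107.8) at 1 g/L, 103.1 to 133.9 RPKM (median 107.0) at 2 g/L and 119.3 to 160.1 RPKM (median 123.1) at 3.5 g/L. Control and 2 g/L overlapped and control and 3.5 g/L did not. Its log2 fold was 0.25 (SE 0.10, limma adjusted p = 0.0294) at 2 g/L and 0.45 (SE 0.10, adjusted p = 0.000362) at 3.5 g/L. On the median-ratio scale the 2 g/L fold was 0.08 and was not called.

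Cox7a2l, a relative of Cox7a2 that ties complex III to complex IV in respiratory supercomplexes, had 26.6 to 35.0 RPKM (median 33.3) in control and 33.9 to 39.2 RPKM (median 35.9) at 1 g/L. At 2 g/L it had 39.0 to 45.3 RPKM (median 41.4) and at 3.5 g/L 37.0 to 42.1 RPKM (median 40.6), above all controls. The log2 folds were 0.15 (SE 0.06, limma adjusted p = 0.101), 0.36 (adjusted p = 3.25e-05) and 0.31 (adjusted p = 0.000141).

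The assembly factors of complex IV are not part of the finished enzyme. Of the 9 genes 1, 8 and 9 were called higher at 1, 2 and 3.5 g/L, with median log2 folds of 0.13, 0.33 and 0.32. Among all tested genes 8.35%, 41.9% and 38.6% were called higher by dose. Their summed RPKM was 49.4 ± 3.07 in control and 54.8 ± 3.64, 68.7 ± 3.40 and 71.2 ± 4.99 by dose (mean ± SD, n = 6). On the median-ratio scale 6 of 9 were called higher at 2 g/L and 6 at 3.5 g/L (21.3% and 23.5% of all genes). Quantile normalization gave 6 and 4 (20.8% and 21.9% of all genes), with a median fold of 0.13 at 3.5 g/L. With the length trend removed 6 were higher and 1 lower at 2 g/L (22.5% and 21.8% of all genes). On that scale 6 were higher at 3.5 g/L (24.9% of all genes). With the title tag as a term 3 of 9 were called higher at 2 g/L (10.6% of all genes), with a median fold of 0.18.

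Cox17 and Cox19, both linked to copper delivery, had the largest folds of this class at 2 and 3.5 g/L on the log2(RPKM + 1) scale. That scale lowers the fold of Cox10 more, with mean RPKM of 2.38 in control and 3.88 at 3.5 g/L, beside 9.92 and 15.9 for Cox17. The place of Cox17 above Cox10 at 3.5 g/L is thus tied to that scale. Cox11, also a copper factor, had a log2 fold of 0.32 at 2 g/L, below that of Cox10. Cox17, which hands copper to the factors that load the enzyme, had 7.22 to 12.0 RPKM (median 10.3) in control, 8.94 to 12.7 RPKM (median 11.0) at 1 g/L, 14.2 to 18.2 RPKM (median 17.1) at 2 g/L and 13.6 to 19.6 RPKM (median 15.8) at 3.5 g/L. Control and 1 g/L overlapped, and both higher doses lay above them. The log2 folds were 0.15, 0.70 and 0.64 (SE 0.10 each), with limma adjusted p of 0.365, 7.68e-06 and 1.92e-05.

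Cox19, a twin cysteine motif protein also linked to copper delivery, had 6.94 to 8.51 RPKM (median 8.05) in control and 8.65 to 10.2 RPKM (median 9.34) at 1 g/L. It had 10.1 to 15.8 RPKM (median 13.4) at 2 g/L and 12.7 to 17.9 RPKM (median 15.2) at 3.5 g/L, so that each dose lay above control in every library. By dose the log2 folds were 0.22, 0.66 and 0.85 (SE 0.08 each), with limma adjusted p of 0.0916, 1.33e-06 and 1.82e-08. Cox11, which inserts copper into the catalytic core, was the one assembly factor called at 1 g/L (log2 fold 0.22, SE 0.06, limma adjusted p = 0.0152).

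The heme a pathway has 2 members in the class. Cox10, the farnesyltransferase that makes heme o, had log2 folds of 0.42 at 2 g/L and 0.53 at 3.5 g/L, and Cox15, which converts heme o to heme a, had 0.33 and 0.26. Cox14, Cox16 and Cox18, which help the core subunits into the membrane or into early assembly intermediates, had 0.28, 0.14 and 0.36 at 2 g/L and 0.32, 0.25 and 0.26 at 3.5 g/L, all called higher by limma. Quantile normalization put Cox16 at -0.0061 at 2 g/L.

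Cox20, a chaperone of the newly made core subunit that carries copper A, changed least. It had 7.89 to 9.05 RPKM (median 8.59) in control, 6.81 to 10.7 RPKM (median 8.85) at 1 g/L, 7.90 to 10.4 RPKM (median 9.16) at 2 g/L and 8.91 to 11.5 RPKM (median 9.64) at 3.5 g/L. The groups overlapped at every dose. Its log2 fold was 0.09 (SE 0.08, limma adjusted p = 0.334) at 2 g/L and 0.19 (SE 0.08, adjusted p = 0.0426) at 3.5 g/L, and with the length trend removed it was -0.22 at 2 g/L and -0.069 at 3.5 g/L.

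**Figure D2:**
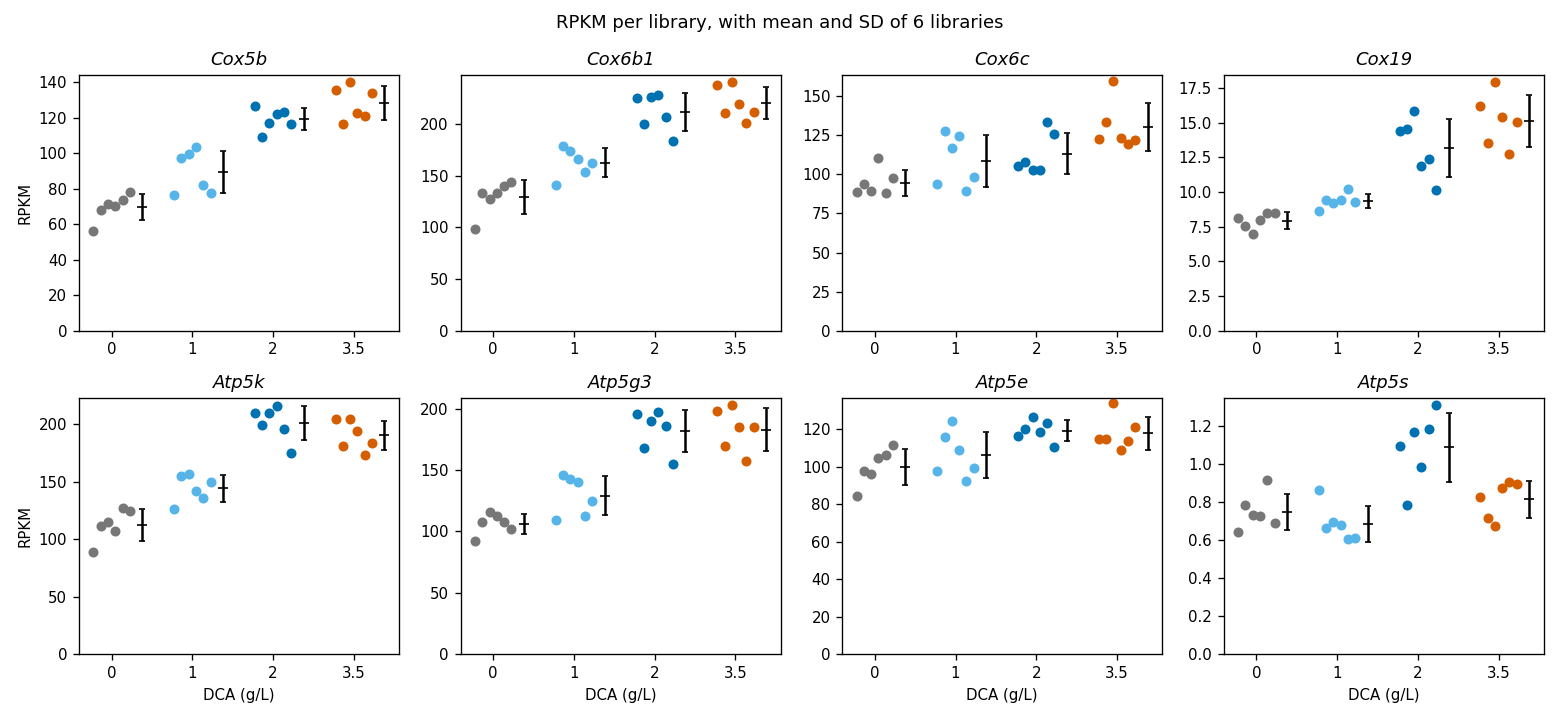
RPKM per library (vertical axis, from 0) by dose of DCA (horizontal axis, g/L) for 8 members, with the mean and SD of 6 libraries beside the points. Cox5b, Cox6b1, Cox19, Atp5k and Atp5g3 at 2 and 3.5 g/L lie above every control, Cox6c and Atp5e overlap with control at 2 g/L, and Atp5s is high at 2 g/L and back near control at 3.5 g/L.

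All 15 structural subunits of ATP synthase were higher at 2 and at 3.5 g/L and 6 at 1 g/L by limma. Over all tested genes 41.9%, 38.6% and 8.35% were called higher at 2, 3.5 and 1 g/L. The median log2 folds of the 15 subunits were 0.21, 0.44 and 0.46 at 1, 2 and 3.5 g/L. Their summed RPKM was 1480 ± 103 in control and 1679 ± 134, 2065 ± 105 and 2113 ± 134 by dose (mean ± SD, n = 6). Classes are given from the catalytic head to the membrane.

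The 5 genes of the F1 head and central stalk had log2 folds of 0.26 to 0.50 at 2 g/L, with a median of 0.34. The alpha and beta subunits, Atp5a1 and Atp5b, had 0.34 and 0.33 at 2 g/L and 0.34 and 0.42 at 3.5 g/L. Neither was called at 1 g/L, where the folds were 0.07 and 0.10 (limma adjusted p of 0.539 and 0.332).

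Atp5c1, the gamma subunit of the central stalk, had 41.2 to 56.7 RPKM (median 53.7) in control and 50.9 to 67.9 RPKM (median 63.5) at 1 g/L. It had 67.4 to 80.6 RPKM (median 72.9) at 2 g/L and 68.6 to 81.1 RPKM (median 76.2) at 3.5 g/L, above all controls. In log2 folds this was 0.25, 0.50 and 0.55 (SE 0.07 each), with limma adjusted p of 0.0324, 7.79e-06 and 1.63e-06. It was the one gene of the head called at 1 g/L.

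Atp5d, the delta subunit, had 57.7 to 64.4 RPKM (median 59.4) in control, 59.2 to 70.0 RPKM (median 65.0) at 1 g/L, 70.0 to 84.1 RPKM (median 79.3) at 2 g/L and 79.4 to 87.5 RPKM (median 83.7) at 3.5 g/L. Its log2 folds were 0.10, 0.38 and 0.46 (SE 0.06 each), with limma adjusted p of 0.239, 7.22e-06 and 3.25e-07, and the 2 higher doses did not overlap with control. Atp5e, the epsilon subunit, had the smallest folds of the head at 2 and 3.5 g/L: 84.2 to 111.5 RPKM (median 101.1) in control, 92.3 to 124.3 RPKM (median 103.9) at 1 g/L, 110.6 to 126.3 RPKM (median 119.1) at 2 g/L and 108.8 to 133.8 RPKM (median 114.7) at 3.5 g/L. Its groups overlapped at every dose. The log2 fold was 0.26 (SE 0.07, limma adjusted p = 0.00592) at 2 g/L and 0.24 (SE 0.07, adjusted p = 0.0101) at 3.5 g/L, but with the length trend removed it was -0.068 and -0.033, so its direction rests on the scale.

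The c subunit of the membrane ring is made from 3 genes, Atp5g1, Atp5g2 and Atp5g3, whose mature proteins are known to be identical and differ in the targeting peptide that is cut off. Their reads may be shared where the transcripts resemble each other, or with processed pseudogenes, and the sources used here do not say how the authors treated such reads. All 3 were higher at 2 and 3.5 g/L, and Atp5g3 more than its paralogs. Atp5g3 had 92.5 to 115.9 RPKM (median 107.7) in control, 109.2 to 145.6 RPKM (median 132.6) at 1 g/L, 154.9 to 197.5 RPKM (median 187.7) at 2 g/L and 157.2 to 202.8 RPKM (median 185.0) at 3.5 g/L. Both higher doses lay above every control and 1 g/L library. The log2 folds were 0.27, 0.77 and 0.78 (SE 0.08 each), with limma adjusted p of 0.0369, 1.73e-07 and 6.60e-08.

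Atp5g1 had 77.1 to 88.6 RPKM (median 85.0) in control, 77.1 to 97.4 RPKM (median 92.2) at 1 g/L, 103.0 to 120.6 RPKM (median 112.3) at 2 g/L and 104.4 to 131.2 RPKM (median 114.0) at 3.5 g/L, with log2 folds of 0.08, 0.42 and 0.46. Atp5g2 had 27.2 to 44.1 RPKM (median 38.5) in control, 39.6 to 50.0 RPKM (median 44.9) at 1 g/L, 47.5 to 58.0 RPKM (median 50.7) at 2 g/L and 47.6 to 57.8 RPKM (median 50.1) at 3.5 g/L, with log2 folds of 0.25, 0.44 and 0.43. Neither was called at 1 g/L (limma adjusted p of 0.449 and 0.0669).

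The share of Atp5g3 in the c-ring transcripts was larger with DCA. Its part of the summed RPKM of the 3 genes was 46.6% ± 1.12 in control and 49.1% ± 1.21, 52.5% ± 1.86 and 52.3% ± 1.42 by dose (SD, n = 6). Atp5g1 held 36.8% ± 1.52, 33.8% ± 0.828, 32.6% ± 1.47 and 33.0% ± 0.945, and Atp5g2 16.6% ± 2.15, 17.1% ± 1.14, 14.9% ± 0.831 and 14.6% ± 0.678. These levels depend on the gene lengths the authors used, which the sources used here do not give.

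Ratios were tested library by library with exact two-sided permutation tests, adjusted over 9 tests, on a comparison chosen with the values known. The log2 ratio of Atp5g3 to Atp5g1 was higher than in control by 0.19 (SE 0.03) at 1 g/L, 0.34 (SE 0.05) at 2 g/L and 0.32 (SE 0.04) at 3.5 g/L, each with an exact p of 0.00216, the smallest that 924 arrangements of 6 against 6 libraries can give, and an adjusted p of 0.00649. The ratio of Atp5g3 to Atp5g2 was higher by 0.03 at 1 g/L (exact test, adjusted p = 0.864), 0.32 at 2 g/L (adjusted p = 0.0195) and 0.35 at 3.5 g/L (adjusted p = 0.00974). Atp5g1 to Atp5g2 differed from control by -0.17, -0.02 and 0.03, with exact permutation adjusted p of 0.218, 0.864 and 0.864. Without control 8 the first of these was -0.23 (adjusted p = 0.0487 by the exact test).

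The pair differs in annotated length, 724 bases for Atp5g3 and 4912 for Atp5g1, and folds varied with length in these libraries. Length here counts all annotated exons of a gene merged, which can exceed the length of any single transcript. With the length trend removed, a setting added after the data were seen, the ratio of Atp5g3 to Atp5g1 was higher than in control by 0.13, 0.19 and 0.20 by dose, each with an exact permutation adjusted p of 0.0234. Atp5g2, of 731 bases, is close to Atp5g3 in length, and their ratio was higher by 0.32 at 2 g/L and 0.35 at 3.5 g/L on that scale, with the same adjusted p from the exact test.

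**Figure D3:**
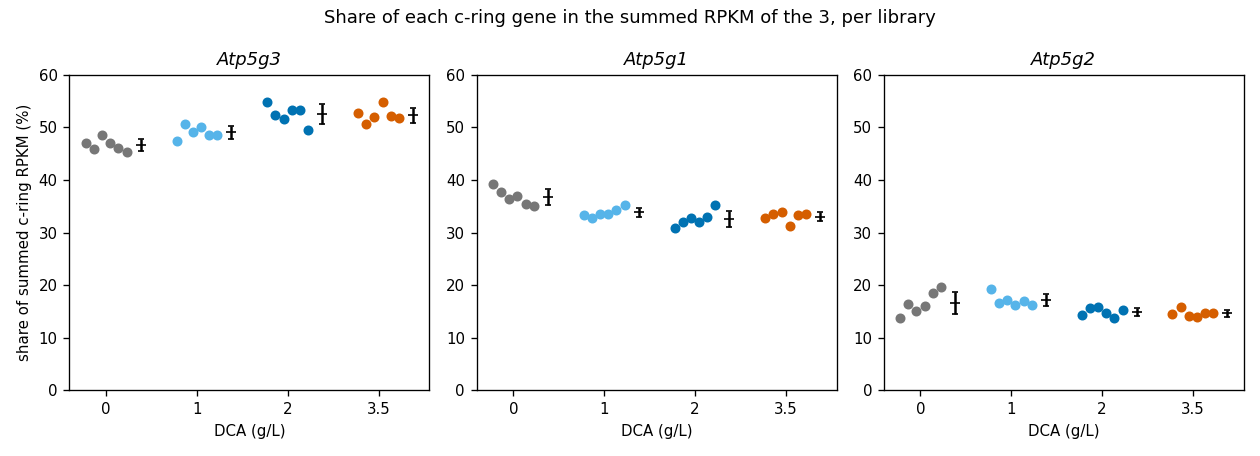
Share of each c-ring gene in the summed RPKM of Atp5g1, Atp5g2 and Atp5g3 (vertical axis, percent), 1 point per library by dose (horizontal axis, g/L), with mean and SD of 6 libraries. The share of Atp5g3 is 46.6% in control and 52.5% at 2 g/L, and that of Atp5g1 is 36.8% and 32.6%.

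The start regions of these 3 genes, which feed the same protein, are shown, 150 bases before to 30 after the annotated start, from the RefSeq promoters of GRCm38.p6. Capitals mark an NRF1 motif (GCGCATGCG, here as 2 overlapping matches on opposite strands) or an ESRRA core motif (AAGGTCA, here on the other strand). Atp5g3 is at chr2:73911297-73911476, Atp5g1 at chr11:96075602-96075781 and Atp5g2 at chr15:102671018-102671197, all on the minus strand.
Atp5g3: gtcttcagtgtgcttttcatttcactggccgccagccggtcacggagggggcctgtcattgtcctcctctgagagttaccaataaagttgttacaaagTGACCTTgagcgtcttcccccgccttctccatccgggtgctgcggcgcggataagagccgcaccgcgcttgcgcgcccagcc
Atp5g1: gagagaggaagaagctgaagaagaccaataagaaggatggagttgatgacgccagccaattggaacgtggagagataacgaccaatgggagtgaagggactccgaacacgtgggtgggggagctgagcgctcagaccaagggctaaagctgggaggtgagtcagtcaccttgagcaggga
Atp5g2: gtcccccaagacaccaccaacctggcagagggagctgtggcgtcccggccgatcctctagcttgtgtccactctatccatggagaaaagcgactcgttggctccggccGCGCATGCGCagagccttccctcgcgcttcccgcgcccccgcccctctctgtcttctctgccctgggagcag
Each window has a motif set of its own among those searched: the ESRRA core in Atp5g3, the NRF1 motif in Atp5g2 and no match in Atp5g1. A match is a description of letters, no binding was measured, and a link of these motifs to the folds of the 3 genes was not tested.

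The 4 peripheral stalk genes had log2 folds of 0.22 to 0.58 at 2 g/L and 0.32 to 0.66 at 3.5 g/L. Atp5o, the oligomycin sensitivity protein that caps the head, had 66.4 to 97.8 RPKM (median 91.3) in control and 90.2 to 111.1 RPKM (median 102.0) at 1 g/L, then 113.6 to 143.3 RPKM (median 132.7) at 2 g/L and 115.5 to 150.8 RPKM (median 131.3) at 3.5 g/L. Its log2 folds were 0.21, 0.58 and 0.60 (SE 0.08 each), with limma adjusted p of 0.106, 5.56e-06 and 2.88e-06. All libraries of the higher doses lay above all controls.

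Atp5f1, the b subunit that spans the stalk, had 66.7 to 83.1 RPKM (median 76.7) in control, 75.9 to 97.9 RPKM (median 91.7) at 1 g/L, 103.8 to 124.4 RPKM (median 112.8) at 2 g/L and 105.2 to 131.8 RPKM (median 121.9) at 3.5 g/L. Its log2 folds were 0.23, 0.55 and 0.66 (SE 0.07 each), with limma adjusted p of 0.0335, 9.86e-07 and 3.78e-08. Atp5j, coupling factor 6, changed least in the stalk: 37.2 to 47.6 RPKM (median 41.9) in control, 40.6 to 51.6 RPKM (median 46.3) at 1 g/L, 45.9 to 53.2 RPKM (median 50.4) at 2 g/L and 47.5 to 59.0 RPKM (median 52.7) at 3.5 g/L. Every dose overlapped with control, 3.5 g/L only narrowly. The log2 folds of Atp5j were 0.12, 0.22 and 0.32, with limma adjusted p of 0.256, 0.00896 and 0.000481.

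The other membrane subunits, e, f and g, had the largest class median of ATP synthase at each dose (0.34, 0.60 and 0.66), and all 3 were called higher at every dose, also on the median-ratio and quantile scales and with the length trend removed, but not within the L1 libraries, where 0 were called at 1 g/L. Of all tested genes 8.35%, 41.9% and 38.6% were called higher by dose, and 0.183% at 1 g/L within the L1 libraries. On the 3 other scales these shares were 3.56% to 5.26%, 20.8% to 22.5% and 21.9% to 24.9% by dose. Subunits e and g are known for the pairing of ATP synthases that bends the cristae. Atp5k, subunit e, had 88.4 to 127.1 RPKM (median 113.0) in control, 126.5 to 157.0 RPKM (median 146.1) at 1 g/L, 174.9 to 215.8 RPKM (median 204.2) at 2 g/L and 173.1 to 204.7 RPKM (median 188.9) at 3.5 g/L. The lowest 1 g/L library lay just under the highest control, and both higher doses lay above every 1 g/L library. As log2 folds these were 0.37, 0.84 and 0.76 (SE 0.08 each), with limma adjusted p of 0.00485, 2.00e-08 and 2.98e-08.

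Atp5l, subunit g, had 75.0 to 95.6 RPKM (median 89.8) in control, 98.8 to 128.2 RPKM (median 109.6) at 1 g/L, 125.5 to 140.2 RPKM (median 134.7) at 2 g/L and 130.4 to 156.1 RPKM (median 136.7) at 3.5 g/L. It was 1 of the 3 members whose 1 g/L libraries all lay above control. Its log2 folds were 0.34, 0.60 and 0.66 (SE 0.06 each), with limma adjusted p of 0.00165, 1.06e-07 and 1.18e-08. Atp5j2, subunit f, had 76.8 to 90.5 RPKM (median 86.9) in control, 90.1 to 118.3 RPKM (median 103.1) at 1 g/L, 118.4 to 136.4 RPKM (median 127.1) at 2 g/L and 120.5 to 145.3 RPKM (median 131.1) at 3.5 g/L, with log2 folds of 0.27, 0.57 and 0.61.

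Atp5k had the largest log2 fold of the 38 tested members at 2 g/L. Its start region held 3 of the 4 motifs searched, and that of Atp5l, with a fold of 0.60, held the same 3. The Atp5k window is chr5:108434370-108434549 on the minus strand (RefSeq, GRCm38.p6). Capitals mark the NRF1 motif (again 2 overlapping matches), the ETS motif bound by GABPA (CCGGAAG, here on the other strand) and the ESRRA core AAGGTCA. The ETS and ESRRA motifs lie after the start.
Atp5k: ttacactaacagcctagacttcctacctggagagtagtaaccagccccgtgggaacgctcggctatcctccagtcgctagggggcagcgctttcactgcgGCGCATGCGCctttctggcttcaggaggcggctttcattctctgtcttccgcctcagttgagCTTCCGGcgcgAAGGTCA
The motifs were searched on both strands of the 300 bases from 250 before to 50 after the start. Start regions were found for 34 of the 44 members.

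Among the 21 matched subunits of both enzymes, 8 (38.1%) held the ETS motif, beside 20.1% of 4907 tested genes and 9.93% of 27025 genes with a start region. The NRF1 motif was in 4 (19.0%: Atp5g2, Atp5k, Atp5l and Cox6a1), beside 4.10% and 1.95%. The ESRRA core was in 4 (19.0%: Atp5e, Atp5g3, Atp5k and Atp5l), beside 4.24% and 5.38%, and the YY1 motif AAGATGGC in 2, beside 5.38% and 3.19%. Of the 7 matched assembly factors 5 held the ETS motif and 0 the NRF1 or ESRRA motif. Atp5e, with the ESRRA core and the ETS motif, had the smallest fold of the head at 2 g/L. Cox5b, with the largest fold of complex IV, held no exact match to any of the 4. Only exact letters were searched, and a link between motifs and folds was not tested.

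Atp5s and Atp5sl carry Atp5 symbols but are no structural subunits. Atp5s, known as coupling factor B, had 0.645 to 0.916 RPKM (median 0.729) in control, 0.604 to 0.867 RPKM (median 0.671) at 1 g/L, 0.784 to 1.31 RPKM (median 1.13) at 2 g/L and 0.673 to 0.904 RPKM (median 0.852) at 3.5 g/L. It was called at 2 g/L, with a log2 fold of 0.25 (SE 0.06, limma adjusted p = 0.000686), but not with the length trend removed, where the fold was 0.11 (adjusted p = 0.121). At 1 g/L its fold was -0.05, and at 3.5 g/L the fold was 0.05 (adjusted p = 0.440). From 2 to 3.5 g/L it fell by 0.20 (SE 0.06, limma adjusted p = 0.0255), the one fall among the members that was called. These values rest on about 26 to 62 reads a library, and under quantile normalization the fall was not called.

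Atp5sl, which RefSeq lists as Dmac2 and which is known for the assembly of complex I, had 3.27 to 4.18 RPKM (median 3.50) in control, 3.25 to 4.32 RPKM (median 3.73) at 1 g/L, 3.26 to 3.95 RPKM (median 3.70) at 2 g/L and 3.25 to 4.83 RPKM (median 4.35) at 3.5 g/L. All groups overlapped. Its log2 fold was 0.01 (SE 0.07, limma adjusted p = 0.890) at 2 g/L and 0.17 (SE 0.07, adjusted p = 0.0394) at 3.5 g/L, and on the median-ratio scale it was 0.05 at 3.5 g/L and not called.

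The 7 tissue-restricted isoforms of complex IV were near 0 in most libraries. Cox7b2 and Cox8c, isoforms known from testis, were listed at 0 in all 24. Cox4i2, the lung isoform, reached at most 0.203 RPKM in any library. The general liver isoforms stood far above them: Cox7a2 had 46.5 to 63.5 RPKM in control, and Cox8a 84.0 to 110.1 RPKM.

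Cox6a2, Cox7a1 and Cox8b are the striated muscle forms. In control 5, the library highest in muscle markers, they were 15.5, 15.7 and 19.7 RPKM, beside 230 RPKM of Acta1, 93.2 RPKM of Ckm and 96.6 RPKM of Myh1, genes of the contractile and energy apparatus of skeletal muscle. In control 6 they were 0.794, 0.953 and 1.44 RPKM. In 1 g/L library 52 Cox7a1 was 3.54 RPKM and Cox8b 4.06 RPKM while Cox6a2 was 0, beside 3.40 RPKM of Cidea, 3.796 RPKM of Adipoq and 33.6 RPKM of Fabp4, genes of fat. Brown fat is known to use Cox7a1 and Cox8b. Outside these libraries Cox8b reached at most 0.0975 RPKM in 21 libraries and Cox6a2 at most 0.0542 RPKM in 22. Cox7a1 had 0.101 to 1.75 RPKM in the same 21 libraries as Cox8b, a range that includes its level in control 6.

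Cox7a1 was the one restricted isoform that could be tested. Its RPKM was 0.489 to 15.7 (median 0.816) in control, 0.101 to 3.54 (median 0.599) at 1 g/L, 0.580 to 1.60 (median 0.789) at 2 g/L and 0.658 to 1.75 (median 1.03) at 3.5 g/L. All groups overlapped. The log2 folds were -0.53, -0.45 and -0.28 (SE 0.42 each), with limma adjusted p of 0.420, 0.386 and 0.594. Without control 5 they were 0.01, 0.09 and 0.26, and were not called either, so the sign rested on that library.

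**Figure D4:**
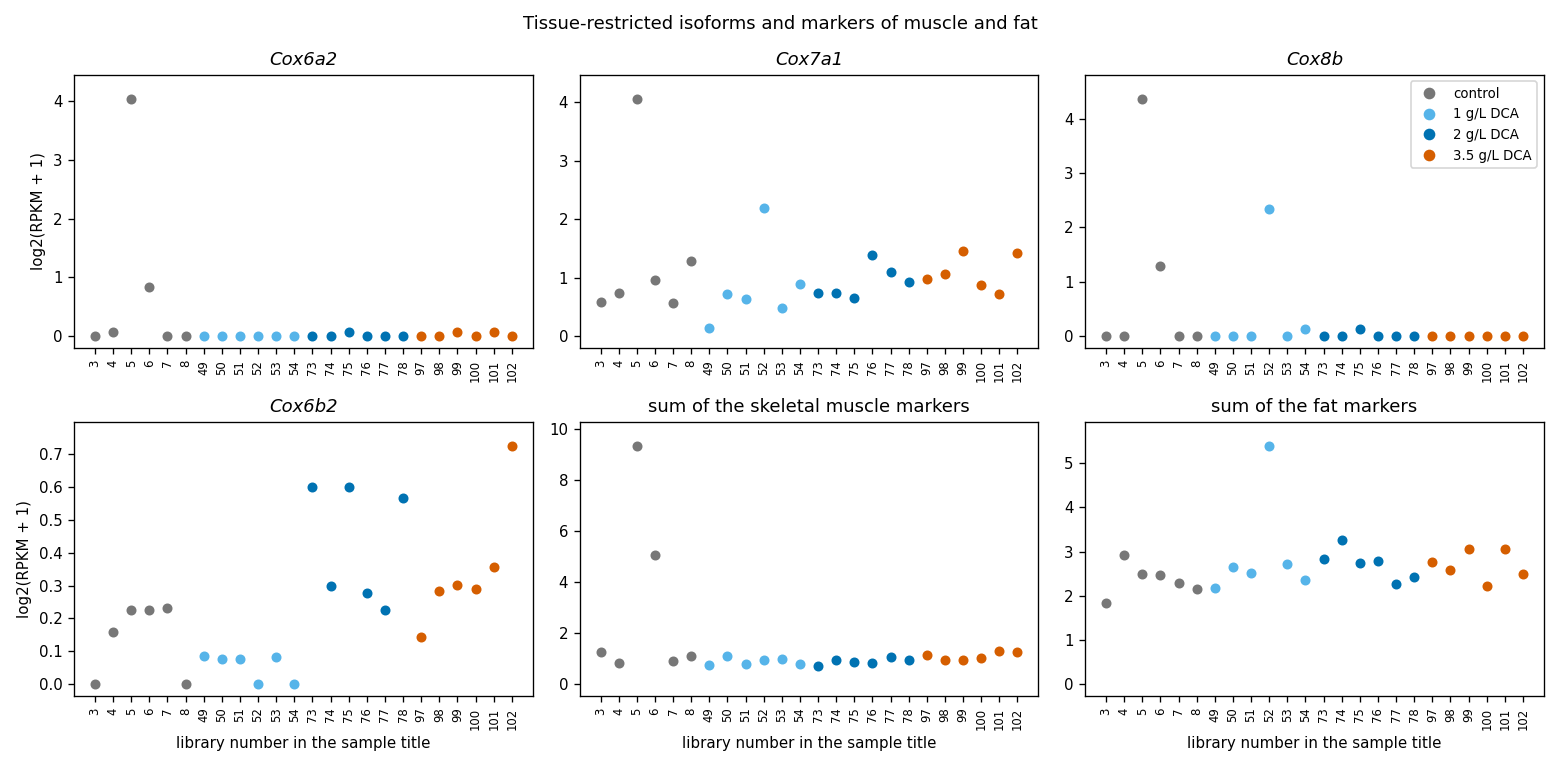
Log2(RPKM + 1) per library (vertical axis, own scale in each panel) for 4 tissue-restricted isoforms and for the summed RPKM of 10 skeletal muscle and 4 fat markers, with libraries on the horizontal axis by the number in their title. Control 5 and control 6 are high in Cox6a2, Cox8b and the muscle markers, and control 5 is also the highest library for Cox7a1. The 1 g/L library 52 is high in Cox7a1, Cox8b and the fat markers. Cox6b2 follows neither pattern.

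The start regions of the liver and muscle forms of subunit 7a are shown because the pair is told apart by tissue. Cox7a2 is at chr9:79759824-79760003 on the minus strand and Cox7a1 at chr7:30184021-30184200 on the plus strand (RefSeq, GRCm38.p6), and neither holds any of the 4 motifs, so no letters are in capitals.
Cox7a2: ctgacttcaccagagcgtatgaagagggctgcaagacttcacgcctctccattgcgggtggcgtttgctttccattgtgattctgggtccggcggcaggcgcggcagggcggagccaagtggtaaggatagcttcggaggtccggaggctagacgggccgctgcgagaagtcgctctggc
Cox7a1: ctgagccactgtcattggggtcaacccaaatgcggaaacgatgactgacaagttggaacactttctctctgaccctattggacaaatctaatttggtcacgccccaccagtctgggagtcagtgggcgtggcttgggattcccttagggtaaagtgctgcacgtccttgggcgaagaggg
Of the 4 restricted isoforms with a start region, 0 held the ETS or NRF1 motif.

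Cox6b2, the testis form of subunit 6b, showed a pattern of its own at very low level. It was 0 to 0.174 RPKM (median 0.142) in control, 0 to 0.0597 RPKM (median 0.0547) at 1 g/L, 0.168 to 0.517 RPKM (median 0.355) at 2 g/L and 0.105 to 0.652 RPKM (median 0.226) at 3.5 g/L. The 2 g/L libraries all lay above the 1 g/L libraries and overlapped with control. It did not pass the filter. With no filter on low values its log2 fold against control was -0.09 at 1 g/L (limma adjusted p = 0.603), 0.29 at 2 g/L (adjusted p = 0.00908) and 0.21 at 3.5 g/L (adjusted p = 0.0562). The highest of these libraries held about 15 reads of the gene, beside 1383 to 3909 reads of Cox5b.

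Other genes of the pathway, from lists chosen with earlier results known, were counted the same way with limma. Of 15 further factors and partners of complex IV, 3, 13 and 12 were higher by dose and 0 were lower. Among all tested genes 8.35%, 41.9% and 38.6% were called higher by dose and 3.03%, 10.0% and 12.9% lower. Ndufa4, a small subunit now counted with complex IV, was among the 15, with log2 folds of 0.22, 0.40 and 0.57. All 3 tested assembly or regulatory genes of ATP synthase were higher at 2 and 3.5 g/L, among them Atpif1, the inhibitor that stops the enzyme from running backwards, with 0.52 and 0.72.

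The electron donor of the oxidase was also higher at 2 and 3.5 g/L. Cycs, somatic cytochrome c, had 15.6 to 19.4 RPKM (median 16.4) in control, 16.9 to 22.8 RPKM (median 20.9) at 1 g/L, 22.5 to 33.1 RPKM (median 31.7) at 2 g/L and 20.6 to 31.4 RPKM (median 27.3) at 3.5 g/L. Its log2 folds were 0.26, 0.77 and 0.60, with limma adjusted p of 0.0865, 1.01e-06 and 1.61e-05. Cyc1, cytochrome c1 of complex III, had 0.18, 0.63 and 0.60.

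Complex I, the class most like these genes, gave counts of the same order: 12, 33 and 36 of its 36 tested nuclear subunits were higher at 1, 2 and 3.5 g/L, with median log2 folds of 0.21, 0.42 and 0.47. Ndufa4 stands in both of these lists. Of 6 tested regulators of respiratory genes, 2, 3 and 3 were higher at 1, 2 and 3.5 g/L, and Crebbp was not called at any dose. Beside the counts of complex I and of these regulators, 8.35%, 41.9% and 38.6% of all tested genes were higher by dose. Esrra, a nuclear receptor of mitochondrial genes, had log2 folds of 0.13 and 0.14 at 1 and 2 g/L (limma adjusted p of 0.378 and 0.220) and 0.54 at 3.5 g/L (adjusted p = 3.15e-05). The subunits encoded in mitochondrial DNA were not analysed here.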

How the data were processed

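RNA sequencing of 24 mouse liver libraries, 6 per dose, was used as RPKM per gene and library, 1 column per library, as the authors deposited it. CASAVA, STAR 2.4, Partek and mm10 are named, without roles, per the submitters' processing notes. The annotation, the treatment of reads that match several genes and the use of strand in counting are not given in the sources used here, so antisense and overlapping genes may share reads. Zeros stand in the table as 1e-04 RPKM and were set to 0. Symbols run alphabetically and the copy used ends within the line of Olfr272, so genes after it were not analysed here. Without that line and 13 lines whose symbols read as dates, 15582 genes were used.

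Genes that reached 0.5 RPKM in 6 or more libraries (6540 genes, 38 of the 44 members) were tested on log2(RPKM + 1) with limma 3.58.1 in R 4.3.3, with 1 mean per dose over all 24 libraries, a spread that depended on expression level, two-sided tests and Benjamini-Hochberg adjustment over all tested genes at a threshold of 0.05. Percentages of all genes refer to the tested genes, 6482 of which had a length for removal of the length trend. Gene length was that of all annotated exons merged, not of a single transcript. The procedure was tested on simulated data. Relative depth came from the steps between low RPKM values, and reads per library from 1475 genes with annotated lengths (interquartile range over genes 24600000 to 28400000). Counts were not recovered, so no count test was run. Gene positions came from GENCODE M21 (GRCm38) and start regions from RefSeq (GRCm38.p6).

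The rule for the members uses symbols only, but the rule, classes and lists were chosen with earlier results of these data known. Library values are given, in each class, for the 2 tested members with the largest and the 1 with the smallest absolute fold at 2 g/L, for any member called lower and for restricted isoforms with a median of 0.5 RPKM in any dose. Cox6b2, the c-ring ratios, Cycs, the libraries left out together and the length-corrected c-ring ratios were added after their values were seen. Alternatives were 2 rescalings (median ratio, quantile), removal of the length trend, a pseudocount of 0.1, a filter at 5 RPKM, no filter, 1 prior spread, the title tag as a term or within a tag, and leaving out each library. No replicate number occurs at more than 1 dose, and samples were not paired.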

Additional observations from a re-analysis of the deposited data

Results flagged for a closer look

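In 13 of 152 sets of 6 libraries, 1 for each tested member and dose, a single library lay far from the other 5, with a gap over 0.625 of the whole range (Dixon's critical value for 6). Chance alone flags about 1 in 20 such sets, and members in 1 library are not independent.

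The lowest control was library 3 for Atp5b (231.7 RPKM against 274.3 to 291.3 in the others), Atp5c1 (41.2 RPKM), Cox6b1 (98.8 RPKM) and Cox7a2l (26.6 RPKM). At 3.5 g/L library 99 was the highest for Atp5g2 (57.8 RPKM), Cox6c (160.1 RPKM), Cox7a2 (89.7 RPKM) and Cox7c (175.4 RPKM against 139.3 to 149.7 in the others). At 1 g/L library 49 was low for Atp5a1 (161.6 RPKM) and high for Atp5s (0.867 RPKM), and at 2 g/L library 77 was high for Cox14 (10.3 RPKM). Cox7a1 was 15.7 RPKM in control 5 and 3.54 RPKM in 1 g/L library 52, the libraries with skeletal muscle and fat markers.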

How the results depend on the processing

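The counts of members called higher at 2 and 3.5 g/L stayed within 1.5 times 35 and 36 under each alternative run, and the other counts moved as follows. At 1 g/L, 13 members became 6 with median-ratio factors, 7 with the length trend removed, 5 with the title tag as a term, 0 within tag L1 and 3 without control 5, control 6 and 1 g/L library 52. With the length trend removed, 1 member, Cox20, was lower at 2 g/L (-0.22, limma adjusted p = 0.00963), 17 members instead of 26 were higher at 2 than at 1 g/L, and 2 (Cox7b and Cox7c) instead of 0 were higher at 3.5 than at 2 g/L. Within tag L2, 15 members were higher at 2 than at 1 g/L. Quantile normalization gave 1 member higher and 0 lower from 2 to 3.5 g/L, and the filter at 5 RPKM gave 0 lower, since Atp5s is below that level. Leaving out each library in turn gave 8 to 15 members higher at 1 g/L, 33 to 35 at 2 g/L, 34 to 36 at 3.5 g/L and 24 to 27 from 1 to 2 g/L, and 0 to 1 higher and 0 to 1 lower from 2 to 3.5 g/L, with 0 lower in the other comparisons. Shares of all genes are not given for the fits with libraries left out. Called folds that changed sign were Atp5e at 2 g/L (-0.068) and 3.5 g/L (-0.033) and Cox20 at 3.5 g/L (-0.069) with the length trend removed, and Cox16 at 2 g/L (-0.0061) with quantile normalization. The cause was not tested. No paired analysis was possible because the doses share no replicate numbers. Depth limits Atp5s and the restricted isoforms, which rest on few reads.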
